A study of Homo sapiens with 52 samples.

Results

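Pairs of short windows that were mutated together on single molecules were described in 5 mRNAs encoding NanoLuc, a small luciferase, that HEK293 cells expressed from transfected plasmids. The members were all rows of 6 deposited full-length lists called combined, made without a tethering protein, and they numbered 1487 of the 4810 rows in the 32 pair lists of the series. Each row joins a window of 3 nucleotides (nt) that begins at position i with a second that begins at position j. The lists held 262 pairs for 5UTR, 209 for CDS1, 232 for CDS2, 329 for 3UTR, 261 for replicate 1 of noTH and 194 for replicate 2 of noTH. The members were thus chosen by measured co-mutation, as the correlation statistic of the lists scores it, and counts, spans and statistics of the lists are a description with no test.

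The mRNAs 5UTR, CDS1, CDS2 and 3UTR each carry 1 MS2 stem loop, a phage RNA hairpin used to tether proteins, in the 5′ untranslated region, at an upstream and a downstream place of the coding sequence, and in the 3′ untranslated region. The inserted segments measure 61 nt in 5UTR and 3UTR, called cassettes below, and 21 nt in CDS1 and CDS2. The mRNA noTH carries none. HEK293 is an established human embryonic kidney line, and dishes received 700 ng of the plasmid for the mRNA beside a firefly luciferase control plasmid, which all groups shared. Suspended cells were treated for 6 minutes at 37 °C with dimethyl sulfate (DMS) from a 1.7 M stock in ethanol, or with ethanol alone. Biological replicates were separate cell populations. The 52 samples fall into 14 groups, including CDS1 and 3UTR with a tethering protein, which were not used here. The lists of the 4 hairpin mRNAs hold replicate 1, and each mRNA was read as 3 overlapping amplicons. The median DMS read depth of an amplicon lay between 434304 and 1046320 in the hairpin mRNAs and between 191719 and 384106 in noTH.

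DMS methylates adenines and cytosines at the face that forms base pairs, and a reverse transcriptase that reads through the methyl group leaves a mutation in the cDNA. In a base-paired helix both strands open together, so that methylation on both strands of 1 molecule can be more frequent than the separate rates would give. PAIR-MaP looks for such joint mutations between windows, which makes it possible to see partners and not only unpaired bases. Translating ribosomes unwind helices in the coding sequence, and a local hairpin has its partners close by to re-form, whereas a helix between distant segments does not.

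The segments of the pairs that recurred in most lists are shown first, because the results below return to them. Each stretch is written 5′ to 3′ from the noTH coding sequence with the 3-nt window in capitals. Positions count from 1 at the 5′ end of the deposited noTH sequence, in which the reading frame covers 110 to 748 of 965 nt. These mRNAs come from plasmids, so no chromosome coordinates apply.
noTH 611: cgaaCGCauuc
noTH 620: ucugGCGaauu
noTH 144: gacuGGCgaca
noTH 155: gacaGCCggcu
noTH 116: ggucUUCacac
noTH 125: acucGAAgauu
noTH 163: gcuaCAAccug
noTH 203: caguUUGuuuc
noTH 355: ugguGUAcccu
noTH 421: ggguUACgccg
noTH 707: ggacCGGcacc
noTH 244: aaagGAUuguc
noTH 256: ugagCGGugaa
noTH 425: uacgCCGaaca
The windows at 611 and 620, 144 and 155, 116 and 125, 163 and 203, 355 and 421, and 256 and 425 are partners of each other. The partner of window 707 is CCG at 808 in the 3′ untranslated region, and the partner of window 244 is AUC at 85 in the 5′ untranslated region.

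Every listed pair was complementary. In 1487 of 1487 pairs all 3 antiparallel positions could form a Watson-Crick or a G-U pair, whereas 5.37 to 5.68% of all window pairs were complementary in any span class and list (11586 complementary pairs were possible within the amplicons of 5UTR, 10721 in CDS1, 10612 in CDS2, 10087 in 3UTR and 10160 in noTH). A list without a single exception cannot show how often co-mutation occurs at windows that do not pair, and no source used here says whether complementarity was a condition for listing. Non-complementary pairs, and the difference in complementary share between short and long spans, therefore could not be described. No pair spanned less than 9 nt, which leaves 6 nt between the windows.

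Most pairs were short. Spans up to 25 nt accounted for 782 pairs (52.6%), spans of 26 to 50 nt for 376, spans of 51 to 100 nt for 261 and spans over 100 nt for 68 (4.57%). Over all spans, 2.26% of the possible complementary pairs were listed for 5UTR, 1.95% for CDS1, 2.19% for CDS2, 3.26% for 3UTR, 2.57% in noTH replicate 1 and 1.91% in noTH replicate 2. The 3UTR list was the longest and also had the deepest amplicon. The noTH replicate 2 list was the shortest and the shallowest, and the part of depth in these counts was not tested.

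Set against the pairs that could form, the listed share fell with every step in span in each of the 6 lists. Up to 25 nt, 140 pairs of 5UTR (15.7% of the complementary pairs), 123 of CDS1 (14%), 131 of CDS2 (14.9%), 149 of 3UTR (17.6%), 131 of noTH replicate 1 (15.4%) and 108 of noTH replicate 2 (12.7%) were listed. Between 26 and 50 nt the counts were 73 (5.73%) for 5UTR, 47 (3.73%) for CDS1, 60 (4.89%) for CDS2, 102 (8.57%) for 3UTR, 59 (4.95%) in noTH replicate 1 and 35 (2.93%) in noTH replicate 2. Between 51 and 100 nt they were 40 (1.72%) for 5UTR, 33 (1.49%) for CDS1, 33 (1.48%) for CDS2, 69 (3.18%) for 3UTR, 50 (2.32%) in noTH replicate 1 and 36 (1.67%) in noTH replicate 2. Over 100 nt the hairpin mRNAs had 9 (0.127%) for 5UTR, 6 (0.0942%) for CDS1, 8 (0.127%) for CDS2 and 9 (0.153%) for 3UTR, against 21 (0.352%) and 15 (0.251%) in the noTH replicates. Over 100 nt both noTH lists, which had the lower depth, lay above the 4 hairpin mRNAs, and in the shorter classes they did not. With 1 list per hairpin mRNA, that difference was not tested.

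**Figure D1:**
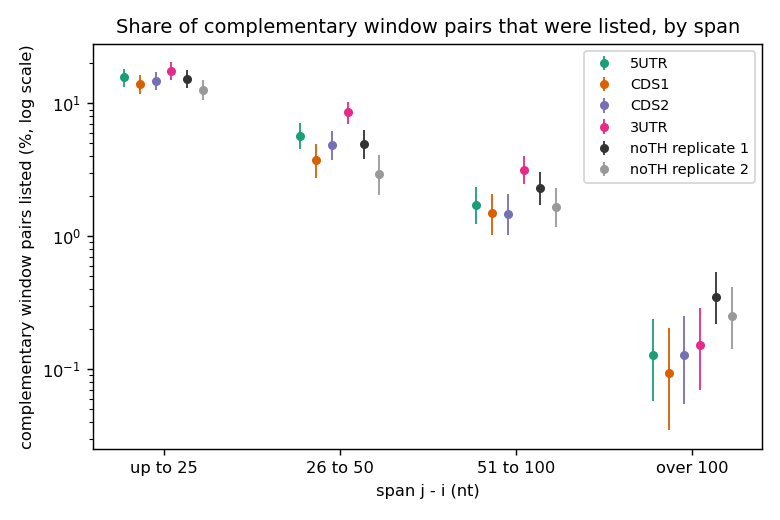
Share of the complementary window pairs within an amplicon that were listed (vertical axis, %, log scale) by span class (horizontal axis, nt), with 1 point per list. Bars are exact Clopper-Pearson 95% intervals, which cover counting error only and treat overlapping pairs as separate. The share runs from 12.7 to 17.6% up to 25 nt and from 0.0942 to 0.352% over 100 nt.

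Within the shortest class the tightest loops were listed most often. At a span of 9 nt, 106 of 290 complementary pairs over the 6 lists were listed (36.6%), at 10 nt 83 of 325 (25.5%) and at 11 nt 92 of 312 (29.5%). At 12 nt the share was 18.2% and at 25 nt it was 9.45%. The decline was uneven, with 7.96% at 14 nt and 17.6% at 17 nt.

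The correlation statistic, a score per pair in the deposited lists, had a common lower end in the 6 lists and a long upper tail. The lowest value was 23.95 for 5UTR, 24.35 for CDS1, 24.06 for CDS2, 23.94 for 3UTR, and 23.93 and 24.06 for the noTH replicates. Pairs below this end were not analysed here. The next values in 5UTR were 23.99 and 24.13, so the members just inside stood close together. The highest value was 1173 for 5UTR, 915 for CDS1, 867 for CDS2 and 1856 for 3UTR, against 1181 and 521 in the noTH replicates.

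The median statistic was lowest over 100 nt, at 38.5 over the 68 pairs, against 68.0 up to 25 nt, 57.0 between 26 and 50 nt and 51.4 between 51 and 100 nt. The order of the middle classes differed between lists. The medians of 5UTR in rising span were 64.5, 52.0, 65.4 and 43.8, and those of CDS1 were 64.5, 64.1, 59.7 and 31.5. For CDS2 they were 66.6, 44.9, 44.4 and 38.3, and for 3UTR 89.6, 64.2, 58.2 and 35.9. In noTH they were 62.9, 51.5, 40.8 and 34.6 in replicate 1 and 64.8, 71.9, 41.4 and 44.6 in replicate 2. The class over 100 nt was lowest in 5 of 6 lists, and in noTH replicate 2 the class of 51 to 100 nt was lower. The lists also give a deposited Z score per pair (Zij), equal in all 1487 pairs to the mean of the scores of its 2 windows within 0.01. Its median was 3.83 up to 25 nt, 2.51, 2.12 and, over 100 nt, 2.14.

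**Figure D2:**
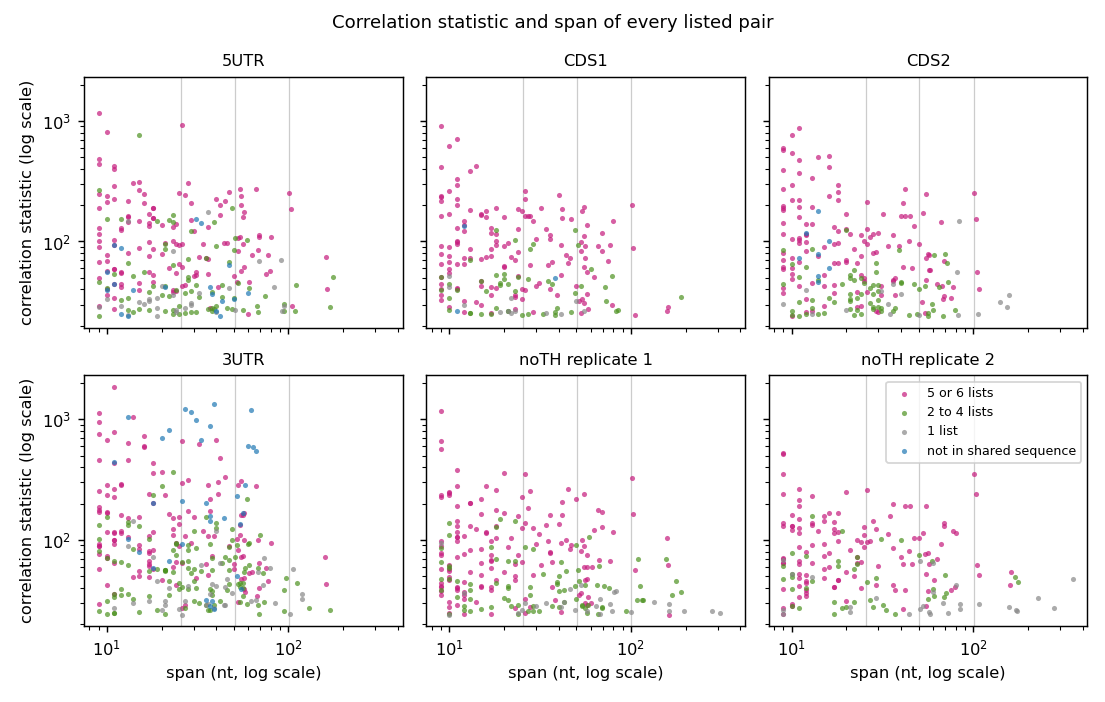
Correlation statistic (vertical axis, log scale) against span (horizontal axis, nt, log scale) of every listed pair, 1 panel per list, coloured by how many of the 6 lists hold the same place within 1 nt. Grey lines separate the span classes. Pairs over 100 nt reach at most 354, and pairs found in 1 list lie mostly low.

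Base composition differed from that of the complementary pairs that could form. A G-U pair was present in 34.5 to 42.4% of the listed pairs of each list, against 69.8 to 70.2% of the possible pairs. All 3 positions were G-C in 10.6 to 17.6% of listed pairs and in 4.60 to 5.87% of possible ones. Listed pairs held on average 1.45 to 1.64 G-C pairs, against 1.07 to 1.13 in possible pairs. Over all spans, the listed pairs were thus richer in G-C in each list than the background of the same amplicons. In CDS2 between 51 and 100 nt they were not, with a mean of 1.12 against 1.13. In every other list and span class the mean of listed pairs was higher.

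The longest pairs held G-U least often. Over 100 nt, 59 of 68 pairs held no G-U (86.8%), and these were 9 of 9 for 5UTR, 6 of 6 for CDS1, 8 of 8 for CDS2, 8 of 9 for 3UTR, 17 of 21 in noTH replicate 1 and 11 of 15 in noTH replicate 2. Up to 25 nt the share without G-U was 57.8% over all lists, and 28.3 to 32.9% of possible pairs held no G-U in any span class. In each of the 6 lists the share was higher over 100 nt than up to 25 nt, by 7.59 percentage points in noTH replicate 2 and by up to 47.2 in CDS1. The 2 recurrent sites described below supplied 29 of the 68 pairs, and none of these held a G-U. In noTH replicate 2 they supplied 4 and 2 of the 15 pairs, so the small difference there leans on them. The lists share much of their sequence, so they are not independent in this respect.

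Listed windows also lay more often in longer runs of possible base pairs, a feature the windows of 3 nt do not fix. A run of at least 5 uninterrupted base pairs through both windows was possible for 44.3% of listed pairs for 5UTR, 48.8% for CDS1, 49.1% for CDS2, 44.7% for 3UTR, and 47.5 and 45.4% in noTH, against 31.5 to 32.0% of all possible complementary pairs. Over all lists together the share rose with span: 287 of 782 pairs up to 25 nt (36.7%), 179 of 376 (47.6%), 177 of 261 (67.8%) and 48 of 68 over 100 nt (70.6%). The last step was a fall in CDS1 (66.7 to 50%) and CDS2 (81.8 to 75%), with 6 and 8 pairs over 100 nt, and a rise in the other lists. The 68 pairs include 12 of 1 site with a run of 8, described below. Among the possible pairs the share lay between 28.5 and 35.0% in every class and list. In 3UTR up to 25 nt the excess was nearly absent, at 28.9% of listed pairs against 28.5% of possible ones. In every other list and class the listed share was higher than the possible one. Neighbouring windows of 1 helix are separate rows, and merging windows within 2 nt left 180 groups for 5UTR, 135 for CDS1, 149 for CDS2, 199 for 3UTR, and 171 and 143 in noTH.

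Co-mutation was more frequent with DMS than without in every pair. The lists set DMS libraries against untreated ones, so this excess can follow from how the pairs were chosen. DMS also mutates each window by itself, so the excess alone does not show pairing. The share of reads with both windows mutated had a median of 0.322% with DMS and 0.00292% untreated for 5UTR, 0.265% and 0.00277% for CDS1, 0.298% and 0.00245% for CDS2, and 0.265% and 0.00292% for 3UTR. In noTH it was 0.398% with DMS and 0.00310% untreated in replicate 1, and 0.496% and 0.00273% in replicate 2. The smallest excess was 3.39-fold, in CDS1. In 6 noTH pairs no untreated read was co-mutated, which allows an untreated share of up to 0.000876% (3 counts), counting error only.

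By count, the coding sequence held most pairs. Both windows lay in it for 1041 of 1487 pairs (70.0%), 113 had both in the 5′ and 127 both in the 3′ untranslated region, 71 joined the 5′ untranslated region to the coding sequence, 70 joined the coding sequence to the 3′ untranslated region, and 65 touched an inserted segment. No pair joined the 2 untranslated regions, which no amplicon covers together. Of the complementary pairs that could form within the coding sequence, 2.27 to 4.15% were listed, against 1.91 to 3.26% over all regions of a list. Within the 3′ untranslated region the share was 1.79 to 3.27%. Within the 5′ untranslated region it was 1.54% for 5UTR and 7.65 to 13.8% in the other lists. Pairs over 100 nt comprised 21 within the coding sequence, 19 from it to the 5′ and 28 from it to the 3′ untranslated region. Relative to what could form at that span, these were 0.117%, 0.247% and 0.315%. Without the 2 recurrent sites described below, which held 12 and 17 of the pairs across the ends of the reading frame, the shares were 0.117%, 0.0908% and 0.124%, so their order rests on those sites. Between 51 and 100 nt the 5′ untranslated region was the densest, with 27 of 223 complementary pairs listed (12.1%), against 1.97% within the coding sequence and 0.285% within the 3′ untranslated region. The 27 pairs repeat neighbouring places across lists and are not independent. For example, 36/93 and 37/92 in noTH numbering were each held in 5 lists within 1 nt.

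The 5′ untranslated region held few pairs in the mRNA with the hairpin cassette there. Pairs with both windows in that region numbered 3 of 195 possible (1.54%) for 5UTR, against 20 of 196 (10.2%) for CDS1, 26 (13.3%) for CDS2, 27 (13.8%) for 3UTR, and 22 (11.2%) and 15 (7.65%) in the noTH replicates. The 3 pairs of 5UTR were 68/77 in noTH numbering, with a statistic of 266 against 85.9 in noTH replicate 1, 60/79 with 23.99 and 98/107 with 29.2. Of 39 places in this region, 21 were listed in at least 4 of the 5 other lists, and 5UTR held 2 of these 21. Its amplicon 1 covered them all, and 20 kept both windows whole, while the cassette splits a window of 1. The highest was noTH 67/87, with a statistic of 160 in CDS1, 168 in CDS2, 366 in 3UTR, 358 in noTH replicate 1 and 250 in noTH replicate 2, and it was absent from 5UTR. At 43/84 the statistic was 52.3, 209 and 299 in CDS1, CDS2 and 3UTR and 94.3 and 63.6 in the noTH replicates, again with no row in 5UTR. Both places lie downstream of the cassette, which follows position 39, so their windows stayed equally far apart. Of the 21, 7 span over 50 nt, most of them across the cassette, and 0 of these were held in 5UTR. The 2 that remained lie next to the start codon, at 97/108 and 98/107. Both rest on the single 5UTR row at 98/107, which lies within 1 nt of 97/108 and had a statistic of 29.2.

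The median DMS depth of amplicon 1 was 487159 for 5UTR, against 434304 for CDS1, 575891 for CDS2, 942774 for 3UTR, and 263722 and 191719 in noTH. The part of depth in the low count of 5UTR was not tested. The full-length list of the same replicate that is not called combined also held 2 of the 21. In 5UTR, 19 of the 1341 complementary pairs that could touch the cassette were listed (1.42%), against 2.26% over the whole list. Of these 19, 11 had their other window in the original 5′ untranslated region and 8 lay within the cassette. The highest was 84/115 in 5UTR numbering, with a statistic of 154 and a span of 31 nt. A single list exists for 5UTR, so the difference from the other mRNAs has no replicate check.

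**Figure D3:**
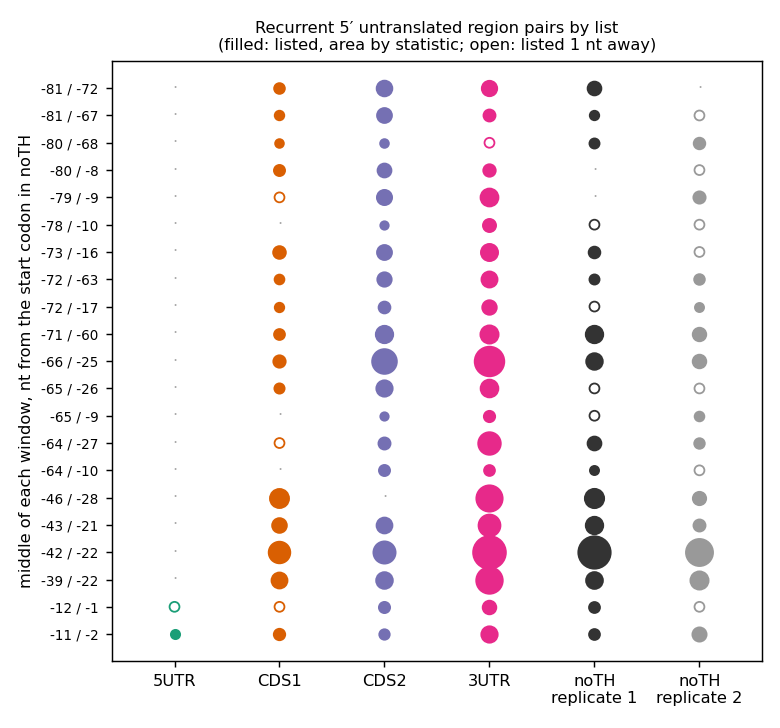
Places with both windows in the 5′ untranslated region that at least 4 of the 5 lists other than 5UTR hold, by list (columns); rows give the middle of each window in nt from the start codon. Filled circles mark listed pairs with an area in proportion to the statistic, open circles pairs listed 1 nt away, dots no pair. The 5UTR column holds 2 of 21 places, of which 20 keep both windows whole in that mRNA.

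In the other hairpin mRNAs the pairs that touched the insert differed in number and partners. Of the complementary pairs that could touch it, 3 of 437 were listed for CDS1 (0.686%), 8 of 339 for CDS2 (2.36%) and 35 of 916 for 3UTR (3.82%). Over the whole lists the shares were 1.95%, 2.19% and 3.26%, so the counts also follow how many pairs could form. CDS1 had 3, all with a window in the coding sequence, and the highest was 268/280 with a statistic of 133. CDS2 had 8, of which 6 lay within the insert, and the highest was 515/529 with 180. In 3UTR 35 pairs touched the cassette, 20 of them with the 3′ untranslated region and 15 within it. Their median statistic was 203, against 71.7 over the whole 3UTR list, and the highest, 804/843 with 1341, belongs to a run of 9 base pairs. Pairs that both noTH lists held exactly were mostly kept where the insert left their segments apart from it: 121 of 140 for 5UTR, 120 of 140 for CDS1, 110 of 140 for CDS2 and 108 of 127 for 3UTR. Such pairs that enclosed the place of an insert with both windows whole numbered only 2 for 5UTR and 1 for CDS1, and 0 of them were held. The insert splits a window of 1 further pair in 5UTR, of 2 in CDS1 and of 3 in CDS2, and 16 lost nucleotides in 3UTR, so these were absent by construction.

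Recurrence between the noTH replicates was lower at longer spans. Within 1 nt at both windows, 169 of the 261 pairs of replicate 1 lay at a pair of replicate 2 (64.8%), and 153 of the 194 pairs of replicate 2 at a pair of replicate 1 (78.9%), while 3.04 to 3.69% of all complementary pairs lie that close to a pair of the other list. From the side of replicate 1 the shares in rising span were 80.9% (106 of 131), 50.8% (30 of 59), 48.0% (24 of 50) and 42.9% (9 of 21). From the side of replicate 2 they were 88.0% (95 of 108), 82.9% (29 of 35), 58.3% (21 of 36) and 53.3% (8 of 15). The share of complementary pairs that close to a pair of replicate 2 falls likewise, from 19.5% up to 25 nt to 0.436% over 100 nt. Pairs found in 1 replicate had lower statistics: their median statistic was 32.0 in replicate 1 and 29.1 in replicate 2, against 76.0 and 70.7 for pairs held by both. The share of co-mutated reads ranked almost alike in the 143 pairs at identical positions (Spearman 0.986), the statistic less so (0.723). These correlations run across pairs of the same mRNA and describe them only.

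Within a replicate, neighbouring amplicons are separate libraries of the same RNA. Amplicons 2 and 3 share a stretch around the end of the coding sequence, in which amplicon 2 listed 305 pairs over the 6 lists and amplicon 3 listed 268, with 191 at identical positions. Within 1 nt, 63.3 to 81.6% of the pairs of amplicon 2 and 63.8 to 88.0% of those of amplicon 3 were found by the other, against 5.90 to 14.9% of the complementary pairs there. Spans of 26 to 50 nt (123 of 170) and of 51 to 100 nt (74 of 103) were found by the other amplicon about as often as spans up to 25 nt (219 of 297), and of 3 pairs over 100 nt there were 0.

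Between mRNAs, after alignment to noTH, a list held a median of 67.0% of the pairs of a list of another mRNA (range 50.3 to 78.6% over 28 ordered comparisons), which overlaps the 64.8 and 78.9% between replicates of 1 mRNA. Of the complementary pairs that could form, 2.98 to 4.19% lay within 1 nt of a pair of the other list. The 1422 pairs in shared sequence fell on 513 places, of which 97 were in all 6 lists and 155 in 1. Up to 25 nt, 65 of 234 places were in all lists (27.8%), between 26 and 50 nt 17 of 140 (12.1%), between 51 and 100 nt 15 of 102 (14.7%), and over 100 nt 0 of 37. These shares have no background by span beside them. Between the noTH replicates the share of complementary pairs near a pair of replicate 2 fell from 19.5% up to 25 nt to 0.436% over 100 nt. Not every list can hold every place, since inserts split or replace windows. Over 100 nt, 28 of the 37 places could be held by all 6 lists, with 0 in all of them, and of the other 9, 4 were in every list that can hold them. Pairs found in 1 list had low statistics, with a median of 30.0, against 109 for pairs in all 6 lists, and 37.4% of them held no G-U, against 73.9%.

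**Figure D4:**
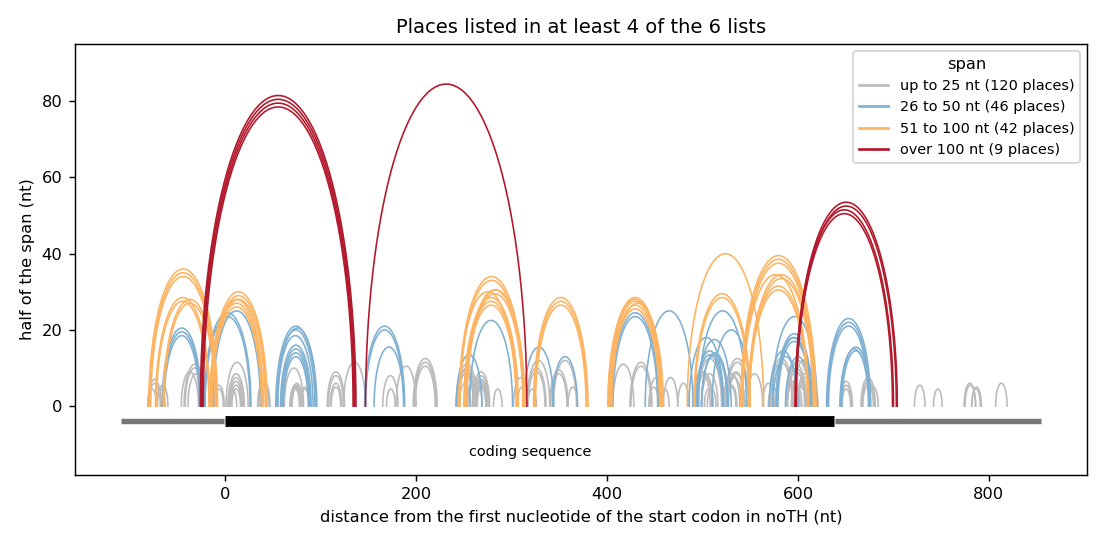
Places that at least 4 of the 6 lists hold, drawn as arcs between the middles of their windows (horizontal axis, nt from the start codon in noTH; taller arcs span more nt). The black bar is the coding sequence and the grey bars are the untranslated regions. Most arcs are short and lie within the coding sequence, and 9 of the places span over 100 nt, at 3 sites.

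Among pairs up to 25 nt in all 6 lists, 611/620 had the highest mean statistic; it closes 6 nt in the downstream part of the coding sequence. Its statistic was 1173 for 5UTR, 915 for CDS1, 576 for CDS2 and 752 for 3UTR, against 1181 and 521 in the noTH replicates, and it led the 5UTR, CDS1 and both noTH lists. At 116/125, near the start of the reading frame, the values were 438, 412, 592 and 1123 in 5UTR, CDS1, CDS2 and 3UTR, and 664 and 514 in noTH. The 2 replicates of noTH differed by a factor of over 2 at 611/620, so differences of that size also occurred between replicates of 1 mRNA.

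The pair 144/155 differed widely between lists. Its statistic was 709 in CDS1, 867 in CDS2 and 1856 in 3UTR, where it led the CDS2 and 3UTR lists, but 103 in 5UTR, and 106 and 113 in the noTH replicates. The co-mutated share with DMS was 0.345% in CDS1, 0.333% in CDS2 and 0.335% in 3UTR, against 0.154% in 5UTR and 0.196 and 0.245% in noTH. Untreated shares were 0.0319% in CDS1, 0.0268% in CDS2, 0.00923% in 3UTR, 0.00899% in 5UTR, and 0.0134 and 0.00818% in noTH. The Z score likewise was 12 in CDS1, 11.7 in CDS2 and 11.8 in 3UTR, against 4.95 in 5UTR, and 6.66 and 8.27 in noTH. Read depth at this pair was 450500, 539902 and 943718 in CDS1, CDS2 and 3UTR, 491671 in 5UTR, and 170108 and 124878 in noTH. The part of depth in the 5UTR and noTH values was not tested.

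Of pairs of 26 to 50 nt in all 6 lists, 683/709 had the highest mean, with 920 for 5UTR, 262 for CDS1, 215 for CDS2, 294 for 3UTR, and 349 and 258 in noTH. The pair 163/203 had 226, 241, 164 and 668 in 5UTR, CDS1, CDS2 and 3UTR, and 135 and 71.9 in noTH. Between 51 and 100 nt, 360/415 (200, 111, 249 and 307, and 242 and 190 in noTH) and 355/421 (272, 91.1, 146 and 278, and 178 and 91.8 in noTH) nest around 365/410. All 3 sit within the reading frame and were in all 6 lists. A further pair of this class, 657/726, had 113, 117, 69.4 and 64.4, and 171 and 130 in noTH.

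Over 100 nt, 2 sites stood out by recurrence. At 707/808, which joins the end of the coding sequence to the 3′ untranslated region through 3 G-C pairs, the statistic was 254 for 5UTR, 201.17 for CDS1 and 250.11 for CDS2, against 325 and 354 in noTH. With its neighbours (706 to 709 with 808 to 815) this site accounted for 17 of the 68 pairs. The 3UTR list cannot hold it, since the cassette there replaced positions 768 to 816. The co-mutated share at 707/808 was 1.53% with DMS for 5UTR, 1.12% for CDS1, 1.13% for CDS2, and 1.85 and 1.92% in noTH, and the untreated share was at most 0.00792%.

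At 85/244, which joins the 5′ untranslated region to the coding sequence, the statistic was 74.2 for 5UTR, 26.4 for CDS1 and 72.7 for 3UTR, against 104 and 42.2 in noTH, and CDS2 had no row. The site (83 to 88 with 243 to 248) held 12 pairs, none with G-U, within a run of 8 complementary base pairs. A further place, 256/425, was listed in 5UTR (28.7), 3UTR (26.3) and both noTH replicates (34.6 and 48.7), near the lower end of the lists. In CDS1 the insert splits window 256, and CDS2 lacked the pair too.

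Other long pairs recurred less. Grouping places within 3 nt gave 25 sites over 100 nt, of which 8 were in at least 2 mRNAs and held 50 of the 68 pairs, while 17 were in 1 list each. The 5 pairs over 200 nt all came from noTH, 2 from replicate 1 and 3 from replicate 2, and none recurred. The longest were 69/423 in noTH replicate 2 (354 nt, statistic 47.5) and 604/914 in noTH replicate 1 (310 nt, 24.7). In the hairpin mRNAs the longest were 140/317 for 5UTR (177 nt, 50.5), 613/803 for CDS1 (190 nt, 34.4), 536/694 for CDS2 (158 nt, 36.1) and 256/425 for 3UTR (169 nt, 26.3). The pair 140/317 of 5UTR is noTH 77/254, which both noTH lists held at 45.5 and 44.6.

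The deposited bonus tables, which give 1 value per nucleotide pair, were most negative at short spans. A bonus stood at the middle base pair of 1429 of 1487 pairs, and all 58 without one had a Z score of at most 1, as did 47 with one. The median bonus was -0.69 up to 25 nt, -0.51 between 26 and 50 nt, -0.47 between 51 and 100 nt and -0.47 over 100 nt. Across lists the median over 100 nt ranged from -0.56 in noTH replicate 1 to -0.21 in CDS2. Among named pairs the bonus at 163/203 was -2.04 for 5UTR, -1.76 for CDS1, -1.55 for CDS2 and -1.65 for 3UTR, against -1.91 and -1.61 in noTH. At 707/808 it was -0.61 for 5UTR, -0.54 for CDS1 and -0.71 for CDS2, against -0.82 and -1.06 in noTH. No source used here gives the unit of the bonus.

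No pair over 100 nt reached a high probability in the deposited structure models. The mean modelled probability of the 3 base pairs exceeded 0.5 for 332 of 1487 pairs (22.3%), of which 211 spanned up to 25 nt, 82 spanned 26 to 50 nt, 39 spanned 51 to 100 nt and 0 of 68 spanned over 100 nt, where the highest was 0.0310. At 707/808 the probability was at most 2.97e-08, although its statistic lay above the median of the shortest class in each of the 5 lists that held it. The pair 683/709, in all 6 lists, stood at most at 8.59e-07, and the 2 pairs both use position 709. By contrast 611/620 was at 0.994 or more in each list and 163/203 at 0.995 or more. Since the models carry the names of the combined lists, they are no separate evidence on them. In noTH, 51 of the 261 pairs of replicate 1 exceeded 0.5 in the model of replicate 2, against 60 in its own, and 45 of the 194 pairs of replicate 2 in the model of replicate 1, against 41 in its own.

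Some listed pairs share a nucleotide and cannot both form in full on 1 molecule, as at 683/709 and 707/808. In 5UTR 31.2% of windows in the list had partners more than 2 nt apart, in CDS1 31.9%, in CDS2 30.2%, in 3UTR 40.3%, and in noTH 32.7 and 26.04%. The share was highest in the list with most pairs and lowest in that with fewest.

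Adenines and cytosines within listed windows reacted less with DMS than those in no listed window, measured in the replicate that did not supply the list. The median mutation rate was 3.30% inside and 4.98% outside for 5UTR, 4.89% and 7.16% for CDS1, 5.24% and 7.25% for CDS2, and 3.86% and 6.12% for 3UTR. For the noTH lists it was 4.81% and 6.82%, and 4.79% and 6.59%. The log2 ratio of inside over outside was -0.54 ± 0.08 (SD over 6 lists) and below 0 in 6 of 6 lists (exact permutation test by flipping signs, two-sided, p = 0.03125, which no 6 lists can go below). The 2 noTH values draw on the same pair of replicates, and with noTH averaged to 1 value 5 mRNAs cannot go below 0.0625. All 6 lists also share much of their sequence and many listed places. They thus compare largely the same nucleotides, and the p-value does not treat this dependence. Windows held fewer adenines (40.7 to 44.6% of their A and C) than other positions (58.3 to 65.7%). The ratio was -0.33 ± 0.10 for adenines alone and -0.72 ± 0.13 for cytosines alone, each below 0 in 6 of 6. In untreated libraries the ratio averaged -0.069 and ranged from -0.17 to 0.11. Median DMS depth in the measured replicates ran from 8377 in CDS2 to 333564 in noTH.

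For windows of pairs over 100 nt the ratio was also below 0 in 6 of 6 lists. Against nucleotides in no window, the log2 ratio ranged over lists from -0.70 to -0.50 for spans up to 25 nt, from -0.92 to -0.49 for 26 to 50 nt, from -0.75 to -0.23 for 51 to 100 nt and from -0.90 to -0.14 over 100 nt, where windows held 13 to 40 A and C per list. A nucleotide can lie in windows of several classes, and these differences were not tested.

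**Figure D5:**
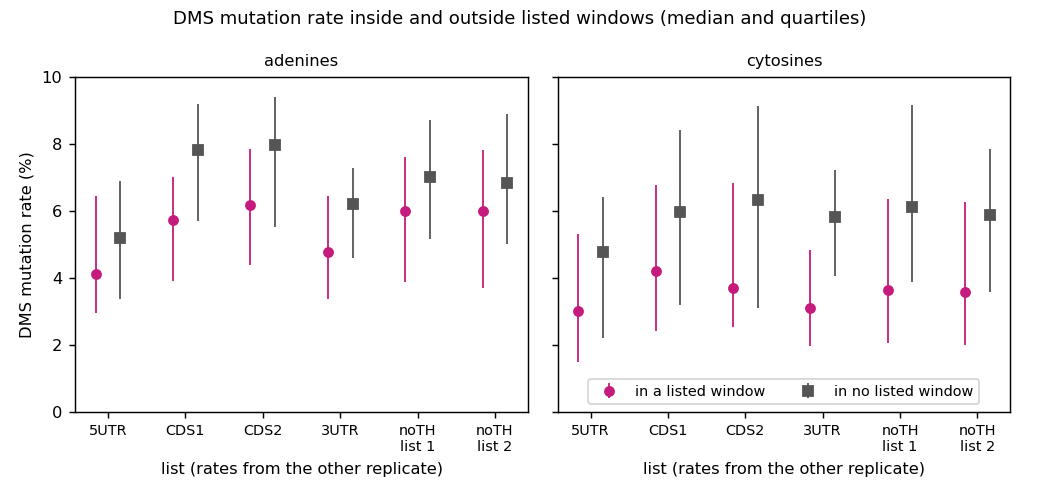
DMS mutation rate (vertical axis, %) of adenines and cytosines in a listed window (circles) and in no listed window (squares) for each list, measured in the other replicate of the mRNA. Points are medians over nucleotides and bars are quartiles. The circles lie below the squares in each of the 6 lists for both bases.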

How the data were processed

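Per the file headers, the authors' pair lists from PairMapper give for each window pair a correlation statistic and Z scores, with counts of read depth and of co-mutated reads in DMS and untreated libraries; the statistic is a deposited score. The deposited bonus tables and models hold scores per nucleotide pair. Deposited profiles give counts of mutations and effective depth, not normalized. UMI-tools 1.1.2 is named in the submitters' processing notes; other steps and thresholds have no source here.

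All rows of the combined lists equalled rows of the 3 amplicon lists of 1 replicate. The class column was not read. Sequences were aligned to noTH with Biopython 1.88 in identical runs of at least 10 nt. Possible pairs were all complementary windows within an amplicon at spans of at least 9 nt. Rates used A and C with a depth of at least 1000 in both treatments and an untreated rate of at most 2%, with the 3 amplicons summed. Counting and the test were tested on simulated data. Named pairs were those in most lists per span class, the highest and the longest of each list, and the highest touching each insert. Both windows in the 5′ untranslated region, runs of base pairs and sites over 100 nt were looked at after values were seen. The members and all lists were chosen with earlier results of these data known.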

Additional observations from a re-analysis of the deposited data

How the results depend on the processing

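No paired analysis was possible because the tests compare lists and not groups that share replicate numbers. Of 96 alternative values of 20 results, 66 stayed within the limits set and 0 reversed. Some of the 66 could not differ, so their number does not measure robustness. Looser calls of complementarity stayed at 100%, and leaving out lists could not move a difference of 0. The joined amplicon lists hold the same pairs as the combined lists. Keeping pairs above their list's median left 436, 177, 110 and 19 pairs in rising span, and raised recurrence to 70.8 and 88.7% between noTH replicates 1 and 2 and to 76.2% of places in at least 2 mRNAs, with 47 in all lists. Merging windows within 2 nt left 234 pairs of 26 to 50 nt and 150 of 51 to 100 nt, and moved the median statistic to 73.1 up to 25 nt and 59.0 between 51 and 100 nt. Full-length lists not called combined gave medians of 76.8 and 54.3 there, and 72.1% recurrence for noTH replicate 2. Exact positions gave 54.8% recurrence for noTH replicate 1 and 60.4% of places in at least 2 mRNAs. The complementary share was 60.1% with Watson-Crick pairs only. Its difference, up to 25 minus over 100 nt, was then -32.5 percentage points, and -0.17 once the share over all window pairs was subtracted; the last is set by the sequences alone, since 100% of pairs were complementary. The largest of the 3 bonuses was -0.73 up to 25 nt and -0.53 between 51 and 100 nt. The log2 ratio of rates was -0.069 untreated (p = 0.1875 by exact permutation), -0.55 with noTH averaged, and -0.56 to -0.52 with 1 list left out. With 5 values the smallest p is 0.0625, so the last 2 lose the threshold by their number alone. How many recurrent places of the 5′ untranslated region 5UTR held was also counted under 2 alternatives chosen after seeing the data, which gave 2 in the full-length list and 3 within 3 nt, against 2. Depth was lowest in noTH, and its part in which pairs were found again was not tested.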
